A study of Mus musculus with 6 samples.

Results

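Muscle makes its own versions of several glycolytic enzymes, and the genes examined here are those isozymes together with their ubiquitous counterparts. The set comprised 34 genes, chosen by symbol and function from the 24421 rows of the count table: 3 glucose transporters, the enzymes from hexokinase to lactate dehydrogenase, the bifunctional enzymes that control phosphofructokinase, and the kinases, phosphatase and core subunits of pyruvate dehydrogenase, with the glycerol phosphate dehydrogenase Gpd1. All 34 genes were among the 15792 tested. Of these, 8 were classed as the muscle type of their family (Slc2a4, Hk2, Pfkm, Pfkfb1, Aldoa, Pgam2, Eno3 and Ldha), 7 as the ubiquitous type (Slc2a1, Hk1, Pfkl, Pfkp, Pfkfb3, Pgam1 and Eno1), 5 as the sole gene examined for their step (Gpi1, Tpi1, Gapdh, Pgk1 and Pkm), and 14 as other isozymes or control genes.

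The samples were engineered muscle constructs from C2C12, an established mouse myoblast line that fuses into myotubes. Control and treated constructs alike were set in a type I collagen gel fitted with titanium tendons and differentiated in high-glucose medium with horse serum. The 3 control constructs received the vehicle, PBS, and the 3 treated constructs received the inflammatory cytokine TNF-alpha at 100 ng/mL for 72 h. All constructs came from this single line. The labels call the replicates biological but name no separate cultures, so p-values speak of variation among these 6 constructs, part of which may be technical.

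Glycolysis breaks glucose down to pyruvate in the cytosol. Glucose enters through facilitative transporters and is trapped by hexokinase. Phosphofructokinase sets the pace of the pathway and is activated by a sugar bisphosphate made and removed by the bifunctional PFKFB enzymes. Pyruvate is then reduced to lactate or admitted to mitochondria by pyruvate dehydrogenase, which its kinases switch off and its phosphatases switch on. During muscle differentiation the myofibre comes to express dedicated forms such as beta-enolase (Eno3), the mutase Pgam2, the phosphofructokinase Pfkm and the insulin-responsive transporter GLUT4 (Slc2a4), while most other cells rely on alpha-enolase (Eno1), Pgam1, Pfkl or Pfkp, and GLUT1 (Slc2a1).

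The promoters of Eno3, Pgam2 and Slc2a1 are shown because these are the 2 steepest falls and, after Aldoc, the steepest rise among the 34 genes. Each sequence is the 250 bases before the RefSeq start of transcription (GRCm38.p6), on the strand of the gene. Capitals mark CANNTG, the E-box that myogenic factors can bind, in Eno3 and Pgam2, and ACGTG, the core of the hypoxia response element, in Slc2a1. The motif marked was set beforehand by whether the gene rose or fell. The Aldoc sequence, which had no ACGTG match before its start, is not shown. The Eno3 sequence lies at chr11:70656926-70657175 on the plus strand, that of Pgam2 at chr11:5803797-5804046 on the minus strand, and that of Slc2a1 at chr4:119108495-119108744 on the plus strand.
Eno3: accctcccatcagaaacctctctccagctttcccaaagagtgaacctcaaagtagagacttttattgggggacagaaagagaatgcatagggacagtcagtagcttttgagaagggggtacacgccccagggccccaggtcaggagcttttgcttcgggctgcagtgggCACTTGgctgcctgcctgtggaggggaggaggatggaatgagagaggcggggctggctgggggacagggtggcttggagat
Pgam2: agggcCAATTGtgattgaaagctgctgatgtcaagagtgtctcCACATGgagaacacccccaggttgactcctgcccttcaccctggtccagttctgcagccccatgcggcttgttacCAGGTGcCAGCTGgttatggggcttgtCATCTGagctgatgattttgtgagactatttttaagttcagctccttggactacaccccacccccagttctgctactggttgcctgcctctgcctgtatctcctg
Slc2a1: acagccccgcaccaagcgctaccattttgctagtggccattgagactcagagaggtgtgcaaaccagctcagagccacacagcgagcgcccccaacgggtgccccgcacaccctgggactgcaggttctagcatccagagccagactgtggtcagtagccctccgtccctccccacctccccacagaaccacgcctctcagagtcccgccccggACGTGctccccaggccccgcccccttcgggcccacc

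With the base before the start of transcription counted as -1, Eno3 had 1 E-box match in this stretch, at -81, Pgam2 had 5, at -245, -207, -132, -125 and -105, and Slc2a1 had 1 ACGTG match, at -36. Aldoc had 2 windows, and in the one nearest its annotated start the only ACGTG match on either strand began at base 28 of the transcript. Across whole RefSeq windows of 300 bases, which add the first 50 transcribed bases, 30 of the 34 genes matched, with 49 windows. The genes with no entry were Slc2a3, Slc2a4, Pdp1 and Gpd1. ACGTG, searched on both strands, was in 20 of the 49 windows (40.8%) and in 19.6% of all 32851 RefSeq windows. The share was 46.2% of the 26 windows of genes that rose and 42.9% of the 14 windows of genes that fell. These shares count windows, not genes, and a gene can hold several, as Pfkm (4) and Pfkfb2 (3) do. With so few genes they cannot show whether the directions differ. The E-box was in 71.4% of the members' windows and 72.3% of all windows, and the kappa B pattern searched, GGG and CC with any 5 bases between, in 65.3% and 50.8%. CACGTG contains both of the first motifs and counts for each. The members' windows also had a higher GC content than all windows (58.5% against 53.8% on average) and more CG dinucleotides (15.4 against 12.4 per window), and ACGTG itself holds a CG; the part of base composition in these shares was not tested. These matches describe letters in a window and were not tested as binding sites.

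Each library had 81713008 to 93533748 counts assigned to genes. Values below are CPM, counts scaled to library size, with TMM factors, and a gene is said to have risen or fallen where edgeR's quasi-likelihood test gave a Benjamini-Hochberg adjusted p under 0.05 over all genes tested. By that rule 27.6% of all tested genes rose with TNF-alpha, 27.9% fell, and in 64.5% the 3 vehicle and 3 TNF-alpha libraries did not overlap. Of 14 myotube markers, all present, 12 fell and 1 (Myog) rose, and their summed level went from 17161 ± 1302 to 10464 ± 628 CPM (SD, n = 3). In bulk RNA, fewer cells of a type and less RNA per cell cannot be told apart. Macrophage markers summed to 14.3 to 15.1 CPM in vehicle and 89.3 to 106 CPM in TNF-alpha libraries, with 4 of the 5 tested up (Cd68, Csf1r, Cd14 and Lyz2). On the same list Itgam did not pass, and Ptprc, Adgre1 and C1qa, which were not tested, never exceeded 4, 2 and 0 counts in a library. Of 8 fibroblast markers 2 rose (Dcn and Pdgfra) and 6 fell (Lum, Col1a1, Col3a1, Col6a1, Pi16 and Dpt). Their sum went from 9446 ± 291 to 11162 ± 609 CPM. In that sum Dcn went from a mean of 2029 to 6021 CPM and Col3a1 from 6257 to 4606 CPM. Of 4 tested endothelial markers 1 rose and 1 fell (5.11 ± 0.96 to 4.63 ± 0.39 CPM), and of 2 tested adipocyte markers 1 rose and 1 fell (7.86 ± 0.80 to 5.32 ± 0.38 CPM). The part of these other lists in the results was not tested.

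Within the vehicle group, replicate 3 stood apart for these genes. In it, 15 of the 34 genes (44.1%) were at least 1.3 times the mean of the other vehicle libraries, against 9.75% of all tested genes, and the median ratio was 1.23 against 1.00. The 15 comprised 12 of the 19 genes that rose, 1 of the 11 that fell (Gpd1) and 2 of the 4 that did not pass the test. Aldoc (2.05), Pfkl (1.95), Pdk1 (1.92), Pgk1 (1.90), Gpi1 (1.66) and Ldha (1.64) had the highest ratios. For these genes vehicle replicate 3 lay between the other vehicle libraries and the TNF-alpha libraries. Its cause was not tested, and leaving this library out left 19 genes risen and 10 fallen.

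**Figure D1:**
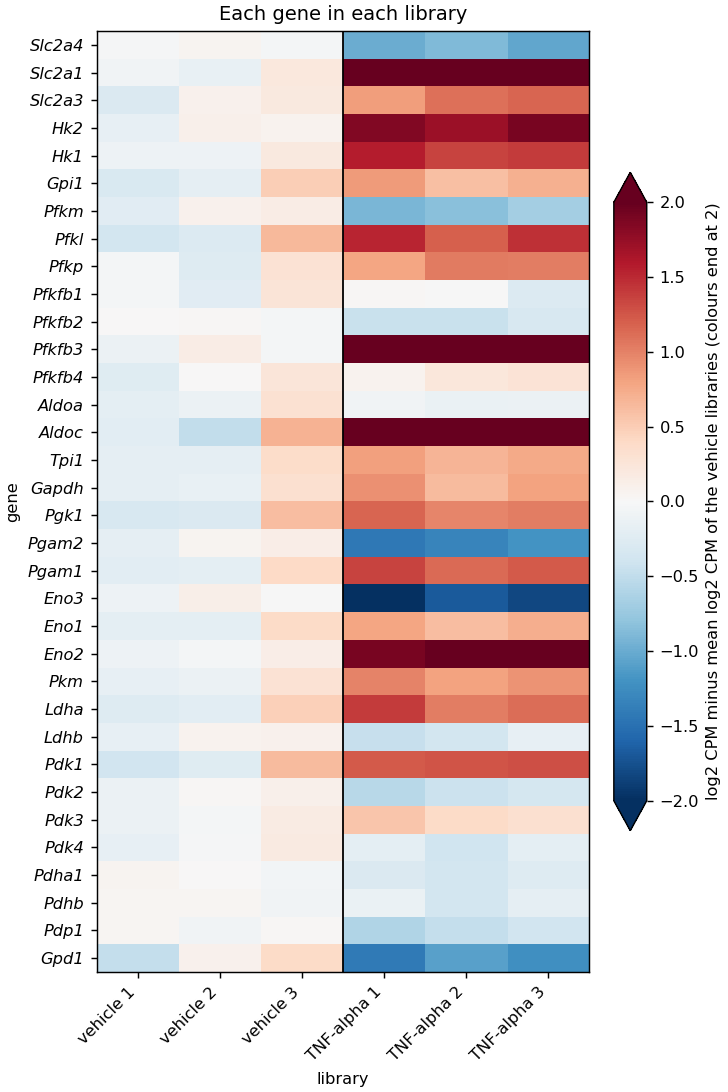
Level of each of the 34 genes in each library, as log2 CPM minus the mean of the 3 vehicle libraries. Red is higher and blue lower, with colours ending at 2 log2 units; the 3 TNF-alpha columns resemble each other, and vehicle replicate 3 is redder than the other vehicle columns for 15 genes that were at least 1.3 times their mean.

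More than not of the 34 genes rose with TNF-alpha, while the muscle-type isozymes of several steps fell. Of the 34 genes, 19 rose (55.9%, against 27.6% of all tested genes), 11 fell (32.4%, against 27.9%) and 4 did not pass the test. The genes were chosen with earlier results of these data known, so the shares describe this set and were not tested against the background. Among 7 ubiquitous isozymes all 7 rose, and among 5 single-gene steps all 5 rose. The 8 muscle-type genes split into 2 that rose (Hk2 and Ldha), 4 that fell (Slc2a4, Pfkm, Pgam2 and Eno3) and 2 that did not pass (Pfkfb1 and Aldoa). Of the other 14, 5 rose, 7 fell and 2 did not pass. The median log2 fold change over the 34 genes was 0.68, against 0.00 over all genes tested, and in 31 of the 34 the groups did not overlap, against 64.5% of all tested genes.

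**Figure D2:**
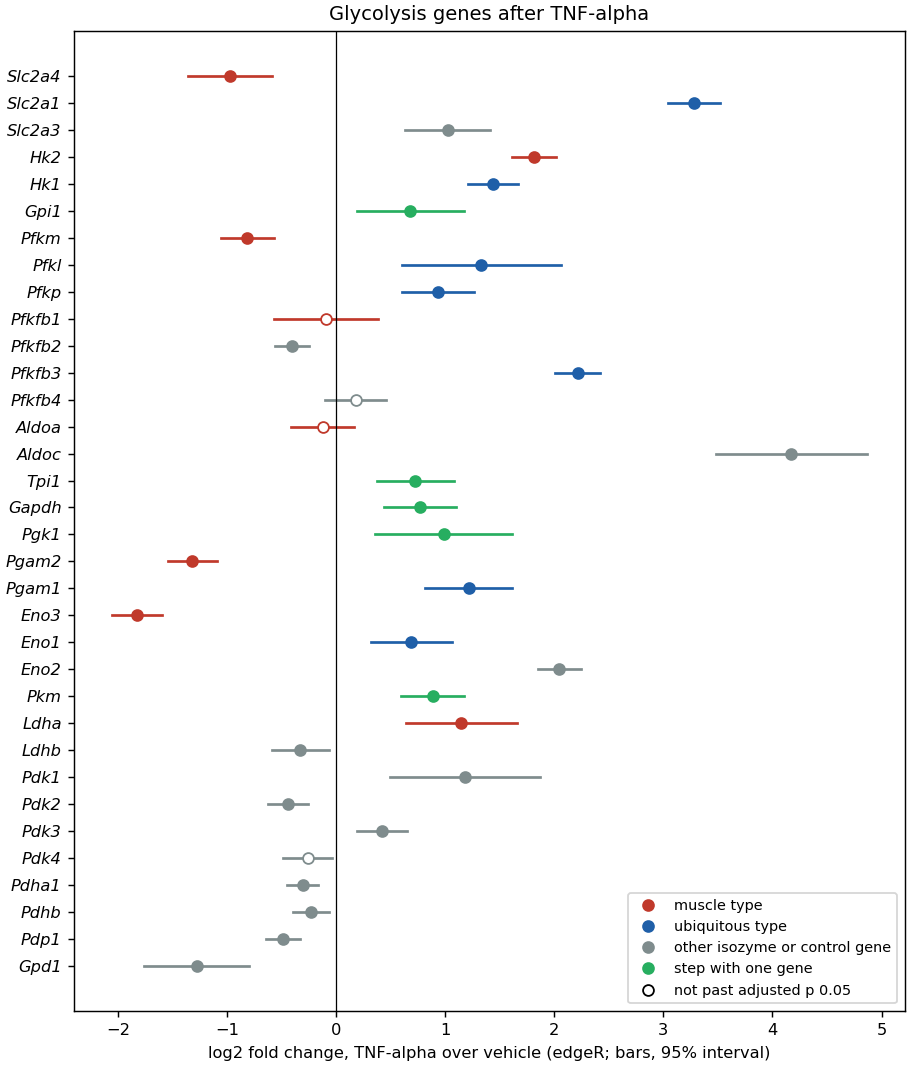
Log2 fold change of each gene, TNF-alpha over vehicle, with 95% intervals from edgeR (3 libraries a group). Filled points passed an adjusted p of 0.05. All 7 ubiquitous isozymes (blue) lie to the right of 0. Of the muscle-type genes (red), 4 filled points lie to the left, and Hk2 and Ldha lie to the right. The open points of Aldoa and Pfkfb1 lie slightly left of 0.

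Glucose transporters moved apart. Slc2a1, which encodes GLUT1, the transporter of basal glucose uptake, was at 115, 108 and 139 CPM in the vehicle libraries and at 1152, 1143 and 1221 CPM in the TNF-alpha libraries. Each treated construct was far above every control, a 9.72-fold rise (log2 fold change 3.28 ± 0.11 SE, edgeR adjusted p = 1.56e-07). The gene lies on chromosome 4 (119108711 to 119137983, plus strand, GRCm38, GENCODE M21). Slc2a4, which encodes GLUT4, the transporter that insulin brings to the muscle surface, was already low in vehicle, at 1.78, 1.89 and 1.77 CPM, and was at 0.909, 0.979 and 0.883 CPM with TNF-alpha. The libraries held 148 to 177 counts of it in vehicle and 74 to 85 with TNF-alpha, and the fall was 1.96-fold (log2 fold change -0.97 ± 0.17, adjusted p = 0.0013). Slc2a3 (GLUT3, a high-affinity transporter of neurons and white cells) rose 2.03-fold from 1.83, 2.36 and 2.55 CPM to 3.95, 4.76 and 4.99 CPM (adjusted p = 0.00103). Per kilobase, Slc2a1 made up 97.6% of the level of these 3 transporters in vehicle and 99.7% with TNF-alpha.

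Both hexokinases rose, the muscle form included. Hk1, the widespread form, was at 180, 180 and 221 CPM in vehicle and at 573, 493 and 506 CPM with TNF-alpha, a 2.71-fold rise (log2 fold change 1.44 ± 0.10, edgeR adjusted p = 7.8e-06). Hk2, the form of insulin-sensitive tissues such as muscle and fat, went from 124, 149 and 146 CPM to 501, 459 and 519 CPM, 3.52-fold (1.82 ± 0.09, adjusted p = 1.12e-06). In neither gene did any treated library reach down to the controls. Gpi1, the isomerase of the next step, was at 583, 640 and 1013 CPM in vehicle and at 1303, 1100 and 1178 CPM with TNF-alpha. The vehicle libraries were spread widely, with replicate 3 close to the treated range, and the rise of 1.60-fold (0.68 ± 0.21, adjusted p = 0.0274) was the least stable among the genes that rose. Leaving out vehicle replicate 1 or 2 gave an adjusted p of 0.0666 or 0.0856, and leaving out TNF-alpha replicate 1 or 3 gave 0.0875 or 0.0666. Testing unfiltered genes gave 0.0528, and all alternatives spanned 9.97e-05 to 0.0875.

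At phosphofructokinase the muscle gene fell and both other genes rose. Pfkm, the form of mature skeletal muscle, was at 500, 624 and 651 CPM in vehicle and at 313, 331 and 365 CPM with TNF-alpha, a 1.76-fold fall (log2 fold change -0.81 ± 0.11, edgeR adjusted p = 2.86e-04). Pfkl, the liver form, went from 149, 161 and 301 CPM to 558, 443 and 535 CPM (2.51-fold, 1.33 ± 0.29, adjusted p = 0.0106). Vehicle replicate 3 was 1.95 times the mean of the other vehicle libraries, and without it the Pfkl rise was 3.29-fold. Pfkp, the platelet form, rose from 121, 103 and 152 CPM to 213, 254 and 251 CPM (1.91-fold, adjusted p = 0.00103). None of these groups overlapped.

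Of the 4 bifunctional enzymes, 1 rose, 1 fell and 2 did not pass. Pfkfb3, an inducible form whose kinase activity far exceeds its phosphatase activity, was at 16.2, 19.5 and 17.1 CPM in vehicle and at 81.3, 75.2 and 88.2 CPM with TNF-alpha, a 4.64-fold rise (log2 fold change 2.21 ± 0.09, edgeR adjusted p = 5.1e-07). Pfkfb2, the heart form, fell 1.32-fold from 28.4, 28.8 and 27.4 CPM to 20.6, 20.8 and 22.5 CPM (adjusted p = 0.00105). Pfkfb1, the liver and muscle form, was near 1 CPM throughout (1.19, 1.04 and 1.46 against 1.23, 1.21 and 1.00; adjusted p = 0.724), with a 95% interval for its log2 fold change of -0.57 to 0.38. Pfkfb4 had an interval of -0.10 to 0.46 (adjusted p = 0.252), and for both genes the groups overlapped. Pfkfb3 accordingly went from 24.6% ± 1.8 to 62.3% ± 1.8 of the summed level of the 4 genes per kilobase (SD, n = 3), while Pfkfb2 went from 38.6% to 44.4% in the vehicle libraries to 16.8% to 17.4% in the TNF-alpha libraries.

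Aldolase gave the steepest rise of all 34 genes and 1 of the 4 that did not pass. Aldoa, the muscle aldolase and by far the most abundant, was at 1446, 1526 and 2046 CPM in vehicle and at 1571, 1511 and 1527 CPM with TNF-alpha. The groups overlapped (log2 fold change -0.12 ± 0.13, 95% interval -0.41 to 0.17, edgeR adjusted p = 0.44). Aldoc, the brain form, on chromosome 11 (78322968 to 78327781, plus strand), was at 1.20, 0.993 and 2.25 CPM in vehicle, which is 93 to 207 counts a library. It was at 26.5, 24.6 and 29.3 CPM with TNF-alpha, an 18.05-fold rise (log2 fold change 4.17 ± 0.29, adjusted p = 3.27e-05) that was 24.4-fold without vehicle replicate 3. Even so, Aldoc was 0.0767% of aldolase RNA per kilobase in vehicle and 1.53% with TNF-alpha.

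The single-gene steps rose by 1.60 to 1.98-fold. Gapdh, the glyceraldehyde phosphate dehydrogenase often used as a loading reference, was at 2947, 3027 and 4167 CPM in vehicle and at 6277, 5174 and 5813 CPM with TNF-alpha (1.70-fold, log2 fold change 0.77 ± 0.14, edgeR adjusted p = 0.0021). Tpi1, the triose phosphate isomerase, rose 1.66-fold (653, 653 and 964 CPM to 1308, 1193 and 1256 CPM, adjusted p = 0.00434). Pgk1, which makes the first ATP of the pathway, was at 730.1, 747 and 1402 CPM in vehicle and at 2046, 1801 and 1856 CPM with TNF-alpha. Its 1.98-fold rise (0.99 ± 0.26, adjusted p = 0.0173) had an adjusted p of 0.0591 without TNF-alpha replicate 1 and ranged from 9.65e-06 to 0.0591 over the alternatives. Pkm, the pyruvate kinase gene whose transcript is spliced into M1 and M2 forms that gene counts cannot separate, rose 1.85-fold from 1944, 2021 and 2664 CPM to 4374, 3826 and 4056 CPM (adjusted p = 4.4e-04).

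Phosphoglycerate mutase and enolase showed the muscle and ubiquitous forms moving in opposite directions. Pgam2, the muscle mutase (chromosome 11, 5801640 to 5803733, minus strand), was at 52.8, 62.0 and 66.1 CPM in vehicle and at 22.4, 23.9 and 26.3 CPM with TNF-alpha. Every treated library was below every control, a 2.49-fold fall (log2 fold change -1.32 ± 0.10, edgeR adjusted p = 1.05e-05). Pgam1, the widespread mutase, rose 2.32-fold from 405, 408 and 616 CPM to 1196, 1027 and 1095 CPM (1.22 ± 0.17, adjusted p = 6.98e-04).

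Eno3, beta-enolase, carries the deepest fall of the set (chromosome 11, 70657202 to 70662513, plus strand). It was at 802, 937 and 861 CPM in vehicle and at 217, 271 and 244 CPM with TNF-alpha, a 3.55-fold fall (log2 fold change -1.83 ± 0.10, edgeR adjusted p = 1.95e-06), and vehicle replicate 3 did not stand apart for it (0.99 times the others). Eno1, alpha-enolase, rose 1.61-fold from 650.4, 648 and 968 CPM to 1288, 1136 and 1232 CPM (0.69 ± 0.16, adjusted p = 0.00715). Eno2, gamma-enolase, known as the neuronal form, rose 4.13-fold from 45.8, 47.5 and 53.8 CPM to 183, 211 and 213 CPM (2.05 ± 0.09, adjusted p = 5.92e-07). Neuron and glia markers, which concern Eno2 and Aldoc, fell in sum from 74.6 ± 14.1 to 29.9 ± 2.7 CPM (6 of 8 tested, 1 up, 2 down). The members of this list behaved unlike each other. Tubb3 (54.3 to 22.2 CPM) and Map2 (16.8 to 3.79 CPM) were detected and fell, and Mbp rose (0.619 to 1.29 CPM). Snap25 and Rbfox3 never exceeded 2 counts in a library. The row of Eno1b, an intronless copy of Eno1, held more counts than Eno1 itself (1105, 1102 and 1645 against 2179, 1924 and 2095 CPM) and rose alike (0.69 ± 0.16, adjusted p = 0.00688). Reads may be divided between these near-identical genes, so the level of Eno1 is uncertain, but adding both rows gave the same log2 fold change of 0.69.

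Ratios within a library do not depend on how libraries are scaled, so the isozymes were compared that way for 5 families, as log2 of the muscle-type over the ubiquitous level per kilobase of exon. For enolase (Eno3 over Eno1) the ratio was 1.93, 2.16 and 1.46 in vehicle and -0.94, -0.44 and -0.71 with TNF-alpha, so that Eno3 exceeded Eno1 in every control and fell below it in every treated library. The difference was -2.55 ± 0.25 (SE), a 5.84-fold drop. The crossing of Eno3 and Eno1 depends on the lengths and rows used. In CPM not divided by length, vehicle replicate 3 held 861 of Eno3 and 968 of Eno1. With Eno1b counted, Eno3 averaged 37.9% of enolase RNA per kilobase in vehicle and Eno1b 50.9%. For phosphoglycerate mutase (Pgam2 over Pgam1) the values were -1.70, -1.48 and -1.98 against -4.50, -4.18 and -4.14, a difference of -2.56 ± 0.18. Here the ubiquitous form led in both groups and drew further ahead. For phosphofructokinase (Pfkm over the sum of Pfkl and Pfkp) the values were 2.26, 2.56 and 1.79 against -0.08, 0.22 and 0.15, a difference of -2.11 ± 0.24. With these exon lengths the muscle form went from dominance to near parity. With the principal transcript length Pfkm went from 71.2% to 37.5% of phosphofructokinase RNA, below parity with TNF-alpha. For the transporters (Slc2a4 over Slc2a1) they were -6.00, -5.83 and -6.28 against -10.3, -10.2 and -10.4, a difference of -4.26 ± 0.15, or 19.2-fold. Hexokinase went the other way: Hk2 over Hk1 was -0.01, 0.24 and -0.08 in vehicle and 0.32, 0.41 and 0.55 with TNF-alpha, a difference of 0.38 ± 0.12.

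In all 5 families the groups did not overlap, and each gave an exact two-sided permutation p of 0.1 (Benjamini-Hochberg adjusted 0.1 over the 5), which is the smallest that 3 against 3 libraries allow, so none can pass 0.05. In the 5 families together, 4 of 5 muscle-type genes fell and all 6 ubiquitous genes rose. These families leave out muscle-type genes that did not fall: Ldha rose, and Aldoa and Pfkfb1 did not pass the test. Of all 8 muscle-type genes, 4 fell. With Pfkl or Pfkp alone as the counterpart the phosphofructokinase difference was -2.21 or -1.76, and with Eno1b added to Eno1 the enolase difference was -2.54.

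**Figure D3:**
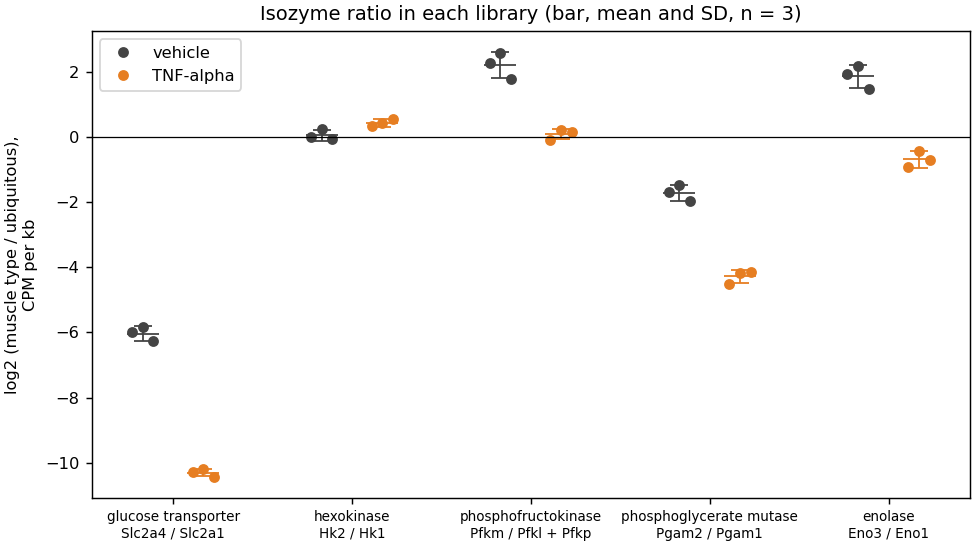
Log2 ratio of the muscle-type to the ubiquitous isozyme (CPM per kilobase) in each library, for 5 families. Points are libraries and bars the mean and SD (n = 3); the ratio is lower with TNF-alpha in 4 families and higher for hexokinase, with no overlap of the groups in any.

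As shares of a family's RNA, the same values read as follows. Eno3 made up 76.8% ± 4.3 of enolase RNA per kilobase in vehicle and 34.2% ± 3.4 with TNF-alpha, Eno1 21.5% ± 4.2 and 55.3% ± 4.1, and Eno2 1.61% ± 0.09 and 10.5% ± 0.7 (SD, n = 3). Pfkm went from 81.9% ± 4.0 to 51.6% ± 2.7 of phosphofructokinase RNA and Pfkl from 13.8% ± 3.7 to 39.2% ± 3.7. Pgam2 went from 23.4% ± 3.1 to 4.93% ± 0.61 of mutase RNA. The absolute shares depend on the length given to each gene: with the principal transcript in place of all annotated exons, Eno3 went from 59.0% to 18.8%, Pfkm from 71.2% to 37.5% and Pgam2 from 21.5% to 4.44%, and Hk2 from 33.6% to 39.7% in place of 50.8% to 57.4%. Counting Eno1b with the enolases gave Eno3 37.9% and 9.33%, and Eno1b 50.9% and 72.8%. The direction was the same in each, but with Eno1b counted Eno3 was no longer the major enolase RNA of the controls.

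**Figure D4:**
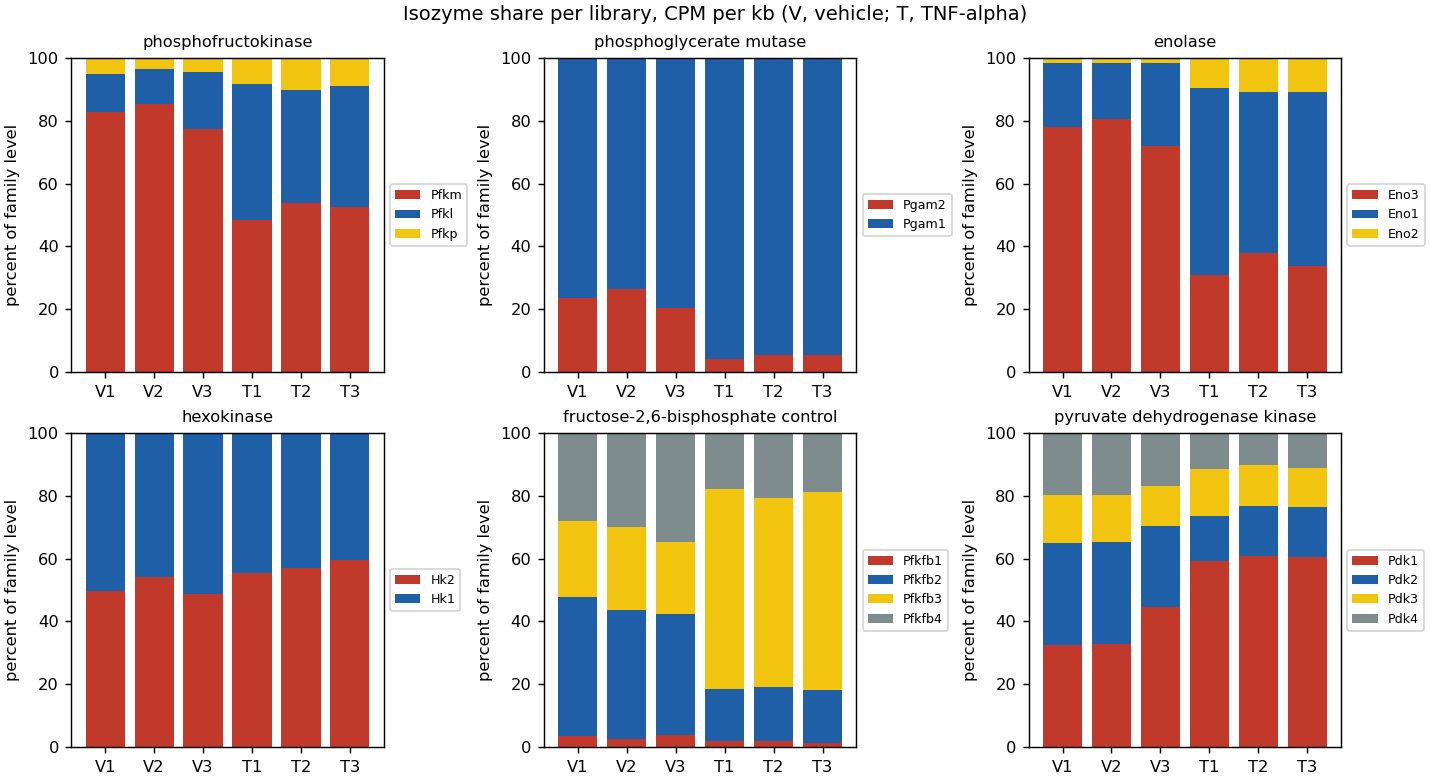
Share of each isozyme in the summed level of its family (CPM per kilobase of annotated exon, percent) in each library, V for vehicle and T for TNF-alpha. The muscle forms Pfkm, Pgam2 and Eno3 (red) take a smaller share in all 3 TNF-alpha libraries, and Pfkfb3 (yellow) and Pdk1 (red) a larger one.

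Summed over the 17 genes of the steps from hexokinase to pyruvate kinase, glycolytic RNA was at 11334, 11934 and 16294 CPM in vehicle and at 21972, 19277 and 20704 CPM with TNF-alpha, a ratio of means of 1.57 (1.78 without vehicle replicate 3). These genes took 1.33% ± 0.27 of all counts in vehicle and 2.04% ± 0.15 with TNF-alpha. The families did not share in this equally. The summed CPM of Eno1, Eno2 and Eno3 was 1671 ± 195 in vehicle and 1666 ± 41 with TNF-alpha, a difference within the spread of the controls. This held only for these 3 rows: with the Eno1b row added the sum was 2955 ± 501 and 3732 ± 169 CPM, a ratio of 1.26. The hexokinases together were 3.05-fold and the mutases 2.11-fold higher with TNF-alpha. For the phosphofructokinases the ratio was 1.18 (920 ± 169 to 1088 ± 62 CPM) and for the aldolases 0.934 (1674 ± 327 to 1563 ± 32 CPM). In both of these families the vehicle and TNF-alpha libraries overlapped.

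Downstream of pyruvate, Ldha rose, while Ldhb and the pyruvate dehydrogenase genes Pdha1, Pdhb and Pdp1 fell by 1.17 to 1.40-fold. The other genes of the pyruvate dehydrogenase complex and its phosphatases on the pathway list, Dlat, Dld, Pdhx, Pdp2 and Pdpr, did not pass the test (edgeR adjusted p = 0.19 to 0.69). Ldha, the subunit of the muscle lactate dehydrogenase and also of most proliferating cells, was at 722, 742 and 1201 CPM in vehicle and at 2283, 1752 and 1868 CPM with TNF-alpha, a 2.22-fold rise (log2 fold change 1.15 ± 0.22, edgeR adjusted p = 0.00351). Ldhb, the heart subunit, was at 10.4, 12.2 and 12.3 CPM and at 8.41, 8.99 and 10.4 CPM, where the lowest control (10.374) and the highest treated library (10.359) nearly met. Its 1.26-fold fall (-0.33 ± 0.11, adjusted p = 0.0358) did not hold when vehicle replicate 2 or 3 was left out (adjusted p = 0.105 or 0.0949) or when TNF-alpha replicate 1 or 2 was (0.0955 or 0.0940), and all alternatives spanned 0.0209 to 0.105. The catalytic subunit Pdha1 fell 1.24-fold (295, 283 and 271 CPM to 231, 220 and 236 CPM, adjusted p = 0.00288). Its partner Pdhb fell 1.17-fold (122, 123 and 113 CPM to 108, 92.7 and 105 CPM, adjusted p = 0.0255), a call that was lost without vehicle replicate 1 (0.0725), vehicle replicate 2 (0.0780) or TNF-alpha replicate 2 (0.0790), with all alternatives spanning 0.0135 to 0.0790. Pdp1, the phosphatase that reactivates the complex and the main one of muscle, fell 1.40-fold from 65.6, 61.3 and 65.1 CPM to 42.1, 45.8 and 48.9 CPM (adjusted p = 4.21e-04).

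The 4 kinases that inactivate pyruvate dehydrogenase did not move together. Pdk1, a known target of hypoxia-inducible factor, was at 95.1, 105 and 192 CPM in vehicle and at 289, 297 and 304 CPM with TNF-alpha, a 2.27-fold rise (log2 fold change 1.18 ± 0.28, edgeR adjusted p = 0.0132; 2.96-fold without vehicle replicate 3). Pdk3 rose 1.34-fold from 14.9, 15.7 and 18.2 CPM to 23.9, 21.1 and 20.3 CPM (adjusted p = 0.00685). Pdk2, the most widespread kinase, fell 1.36-fold from 38.8, 42.6 and 45.2 CPM to 28.7, 31.4 and 33.1 CPM (adjusted p = 0.0016). Pdk4, the kinase that fasting muscle induces, was at 25.9, 28.6 and 32.6 CPM and at 25.3, 22.0 and 25.3 CPM. Its groups did not overlap, but the test fell just short (-0.26 ± 0.10, 95% interval -0.49 to -0.04, adjusted p = 0.0504), with a range of 0.0245 to 0.150 over the alternatives, 7 of which put it past the threshold. Pdk1 went from 36.6% ± 7.0 to 60.2% ± 0.9 of the kinase RNA per kilobase and Pdk2 from 30.3% ± 4.0 to 15.5% ± 0.9.

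Gpd1, the cytosolic enzyme of the glycerol phosphate shuttle, which passes electrons of cytosolic NADH to mitochondria, fell 2.43-fold from 5.69, 8.35 and 10.3 CPM to 2.95, 3.70 and 3.38 CPM (log2 fold change -1.28 ± 0.21, edgeR adjusted p = 0.00107). The vehicle libraries differed widely but all stood above the treated ones. The fall of Gpd1 does not speak for the shuttle as a whole. Among the other pathway genes, Gpd1l fell 1.37-fold (mean 58.5 to 42.6 CPM) and Gpd2 rose 1.91-fold (mean 60.7 to 116 CPM).

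Other genes of glucose uptake, glycolysis, pyruvate oxidation and gluconeogenesis were called at shares near or below those of all genes. Of 41 such genes, 32 were tested, of which 9 rose (28.1%, against 27.6% of all genes), 7 fell (21.9%, against 27.9%) and 16 did not pass, with a median log2 fold change of -0.04. The 2 rises with the smallest p were Gpd2, from 61.1, 58.3 and 62.7 CPM to 99.8, 134 and 113 CPM (0.93 ± 0.10, edgeR adjusted p = 1.12e-04), and Adpgk, the ADP-dependent glucokinase, from 28.8, 28.9 and 27.9 CPM to 45.5, 38.7 and 43.9 CPM (0.58 ± 0.07, adjusted p = 2.06e-04). The 2 falls with the smallest p were the transporter Slc2a12 and Mpc2, a subunit of the carrier that brings pyruvate into mitochondria. Slc2a12 was at 0.240, 0.304 and 0.283 CPM and at 0.0428, 0.0233 and 0.0298 CPM, with as few as 2 counts in a library (-3.12 ± 0.45, 95% interval -4.15 to -2.09, adjusted p = 4.61e-04). Mpc2 fell from 36.3, 38.7 and 35.0 CPM to 28.2, 21.9 and 24.5 CPM (-0.56 ± 0.10, adjusted p = 0.00118).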

How the data were processed

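Polyadenylated RNA of 6 C2C12 engineered muscle constructs was measured with a stranded mRNA kit and paired-end sequencing, per the labels. The deposited values are estimated counts, not the integers that the design text names: decimals occur in 20.1% to 21.0% of each library's values and, in at least 1 library, in 23 of the 34 genes. Reads shared by near-identical genes may therefore be divided between rows. Per the submitters' processing notes, the tools were TopHat2 2.1.1, Bowtie2 2.3.5.1, featureCounts, Subread 2.0.0 and DESeq2, with builds mm10 and GRCm38; the sources used here give neither their roles nor the use of strand.

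Counts were rounded, since the planned test takes whole numbers, and fitted in R 4.3.3 with edgeR 4.0.16 (filterByExpr, TMM, robust quasi-likelihood test, group as the only term) over all 15792 genes that passed the filter, with Benjamini-Hochberg adjustment over all of them. The script was run on simulated counts with far fewer changed genes than were called here. That run does not measure its error rate on these data. CPM were divided by the merged exon length in GENCODE M21 to compare genes; of 2 annotations named Aldoa on chromosome 7 the first was used. Log2 isozyme ratios were compared by exact two-sided permutation, with no pseudocount. Replicates differed by more than sampling noise (chi-square per degree of freedom 22.0 to 66.9). Named genes were all 34, and from the other pathway genes the 2 with the smallest p in each direction, with a few more set beside the members they relate to. The genes and lists were chosen with earlier results of these data known. The alternatives tried were upper-quartile or median-ratio scaling, testing without a filter, a filter of 10 CPM in 3 libraries, DESeq2 1.42.0, limma-voom (limma 3.58.1), no robust estimation, a replicate block and each library left out. The alternatives for gene length, the Eno1b row and the summed glycolytic level were chosen after seeing the data. Isozyme protein sequences are not reported here.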

Additional observations from a re-analysis of the deposited data

How the results depend on the processing

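Over 13 to 15 alternatives per gene, 29 of the 34 genes kept their direction and their side of the threshold or, for Aldoa and Pfkfb1, stayed short of it with log2 fold changes on both sides of 0 (-0.22 to 0.04 and -0.21 to 0.04). Gpi1, Pgk1, Ldhb and Pdhb lost their call and Pdk4 gained one under the settings given above. The count of genes that rose ranged from 17 to 19 and of those that fell from 9 to 12, and no called gene reversed. The numbers do not pair the samples (correlations of same-numbered deviations of 0.04, -0.05 and -0.11): with the replicate block 19 of the 34 genes rose and 12 fell, and 4242 and 4244 of all genes did so, against 4366 and 4403. The sign-flip p of the isozyme ratios under the replicate block was 0.25 in each family, the smallest that 3 pairs allow. The stricter filter left 3 fallen other pathway genes in place of 7, because fewer genes were tested. The ratio of summed glycolytic RNA was 1.46 to 1.78 when each library was left out. Differences of the isozyme log2 ratios were -2.74 to -2.39 for enolase, -2.69 to -2.43 for the mutase, -2.31 to -1.76 for phosphofructokinase, -4.38 to -4.16 for the transporters and 0.32 to 0.48 for hexokinase. The exact permutation p for hexokinase was 0.2 when any TNF-alpha replicate was left out. The other families stayed at 0.1, the smallest possible, with each library left out. No scaling moved the median log2 fold change of all genes beyond -0.03 to 0.01. Low counts limit the precision for Slc2a4, Pfkfb1 and, in vehicle, Aldoc, and for 7 of the 32 other pathway genes tested, Slc2a12 among them, which had under 100 counts in every library.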

Other observations

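Per kilobase of annotated exon, Gapdh ranked first among the 34 genes in both groups. Eno3 ranked 3 in vehicle and 11 with TNF-alpha, Aldoa 2 and 6, and Pfkm 9 and 12. Pgk1 ranked 5 and 2, Ldha 7 and 4, and Slc2a1 14 and 8. These ranks are of group means, depend on the exon lengths used, and were not tested. Of the 5 genes of the set on chromosome 11, Eno3, Pgam2, Slc2a4 and Pdk2 fell and Aldoc rose, and of the 7 on chromosome 6, 5 rose, 1 fell and 1 did not pass the test; no comparison with other genes of those chromosomes was made.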
